A study of Mus musculus with 12 samples.

Results

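*Il1a*, *Il1b* and *Il1rn*, the genes of the interleukin 1 (IL-1) family found by symbol in a liver RNA-seq table, make up 3 of the 3799 genes that the table lists. Livers came from male C57BL/6J mice aged 8 weeks at the start, in 4 groups of 3 libraries, which are Saline and the doxorubicin-treated groups DOX, DOX + K27 and DOX + K35. The question put to the groups was how doxorubicin, a chemotherapy drug that damages DNA and is used to induce senescence, and then K35 or its analog K27, alter gene expression in liver. No transgene or gene deletion was involved, and all groups shared the strain, sex and age.

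The DOX, DOX + K35 and DOX + K27 mice received 10 mg/kg doxorubicin into the abdomen on day 0 and on day 7, and the Saline mice received saline. From day 2 onward, DOX mice took vehicle, DOX + K35 mice took 50 mg/kg K35 and DOX + K27 mice took 50 mg/kg K27, each given into the stomach every 2 days. Livers were taken on day 20. The labels call the Saline group vehicle, and the sources used here do not state whether these mice also took the vehicle into the stomach. K35 and K27 were therefore given at a matched dose and schedule, starting after the first doxorubicin injection and before the second, and no group received a compound without doxorubicin.

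IL-1α, encoded by *Il1a*, and IL-1β, encoded by *Il1b*, are inflammatory cytokines that act through the same receptor on the cell surface. IL-1α is held in many cell types and acts as an alarm signal when cells are damaged, while IL-1β is made mainly by activated myeloid cells as a precursor that inflammasomes activate through caspase-1. *Il1rn* encodes the IL-1 receptor antagonist, which binds the receptor without activating it, and is made by macrophages and by hepatocytes during the acute phase. In liver, IL-1 from Kupffer cells, the resident macrophages, drives hepatocytes to secrete acute phase proteins, and both ligands are known members of the secretory phenotype of senescent cells.

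The 3 genes lie on chromosome 2 (GRCm38, GENCODE M21). *Il1a* (ENSMUSG00000027399, chr2:129299610-129309972, minus strand, 7 exons) and *Il1b* (ENSMUSG00000027398, chr2:129364570-129371139, minus strand, 7 exons) are separated by 54597 bases. *Il1rn* (ENSMUSG00000026981, chr2:24336853-24351494, plus strand) lies 104.948 Mb away and has 4 protein-coding transcripts in the annotation, which begin in separate upstream and downstream regions. The values cover the exons of the whole gene, so secreted and intracellular forms of the antagonist are summed. A gene on the opposite strand overlaps *Il1a* (Gm14023) and *Il1b* (Il1bos), and the sources used here do not state that strand was used in counting, so reads of these pairs cannot be told apart. No annotated gene overlaps *Il1rn*.

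The 250 bases upstream of the RefSeq start sites (GRCm38.p6) are shown because the 3 genes are read from separate promoters. Each runs 5′ to 3′ on the strand of its gene, and capitals mark matches to a TATA box (TATAAA), an AP-1 site (TGANTCA) or a C/EBP site (TTNNGNAA), searched on both strands. They cover chr2:129309973-129310222 for *Il1a*, chr2:129371140-129371389 for *Il1b*, chr2:24336610-24336859 for the upstream start of *Il1rn* and chr2:24345041-24345290 for its downstream start.
Il1a: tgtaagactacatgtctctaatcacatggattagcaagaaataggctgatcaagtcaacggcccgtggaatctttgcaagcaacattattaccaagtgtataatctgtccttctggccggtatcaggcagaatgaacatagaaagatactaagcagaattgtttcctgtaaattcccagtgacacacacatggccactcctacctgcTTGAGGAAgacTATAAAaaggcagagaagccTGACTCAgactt
Il1b: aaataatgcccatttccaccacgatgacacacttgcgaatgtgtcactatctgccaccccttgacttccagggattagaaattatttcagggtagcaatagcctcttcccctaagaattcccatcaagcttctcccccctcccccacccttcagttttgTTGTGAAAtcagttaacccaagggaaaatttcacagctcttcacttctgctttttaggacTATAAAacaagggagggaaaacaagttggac
Il1rn upstream start: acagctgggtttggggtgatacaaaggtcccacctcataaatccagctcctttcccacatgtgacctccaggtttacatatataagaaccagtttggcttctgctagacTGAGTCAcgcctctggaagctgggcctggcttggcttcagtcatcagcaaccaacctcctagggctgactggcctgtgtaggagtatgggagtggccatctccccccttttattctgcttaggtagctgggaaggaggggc
Il1rn downstream start: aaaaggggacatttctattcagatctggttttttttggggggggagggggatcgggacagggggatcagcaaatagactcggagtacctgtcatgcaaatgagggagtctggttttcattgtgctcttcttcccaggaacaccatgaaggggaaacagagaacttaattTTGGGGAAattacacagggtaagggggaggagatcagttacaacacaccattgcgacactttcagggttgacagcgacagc

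Both ligand promoters held a TATA box, at bases 32 to 27 before the start of *Il1a* and 31 to 26 before that of *Il1b*. Neither *Il1rn* window held these letters. The *Il1a* window also held an AP-1 match at bases 12 to 6 and a C/EBP match at bases 43 to 36, and the *Il1b* window a C/EBP match at bases 91 to 84. The upstream *Il1rn* window held an AP-1 match at bases 141 to 135 and the downstream window a C/EBP match at bases 81 to 74. None of these matches overlapped another. Of 32851 promoter windows of this length, 12.4% held the TATA letters, 6.75% the AP-1 letters and 36.8% the C/EBP letters. The κB consensus was found in none of the 4 windows and in 7.25% of all windows. A match describes letters only and is not a measured binding site.

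Expression was given as FPKM, which counts sequenced fragments per kilobase and is scaled to the size of a library, a unit inferred from the values because the table names none. Depth per library is unknown since the table holds no counts. Hepatocyte markers summed to between 7727 and 13063 FPKM in every library, so the liver origin was evident. The 13 mitochondrially encoded genes took the largest share of the FPKM summed over the 3799 genes of the table in DOX (62.2% to 83.3%). DOX + K27 (50.01% to 68.0%), Saline (48.2% to 61.9%) and DOX + K35 (37.9% to 48.7%) followed. These are shares of the genes listed and not of all RNA in a library. The part of the mitochondrially encoded genes in the results was not tested beyond the fits without them given here. Saline replicate 3 stood apart, with 1117 FPKM of the acute phase gene *Saa1* against at most 31.3 FPKM elsewhere. Libraries B3, B4 (DOX) and C4 (DOX + K35) carry codes that match no single label and were used by group only.

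Across the 12 livers the antagonist differed between groups the most of the 3 genes, and *Il1a* the least. *Il1rn* fell in DOX livers and in DOX + K35 livers against Saline, with group means of 0.232 and 0.229 times the Saline mean. The *Il1b* means were 0.397 (DOX + K27), 0.512 (DOX + K35) and 0.517 (DOX) times that of Saline, without passing the test. *Il1a* stayed between group means of 1.80 and 2.71 FPKM, and 0 of 6 comparisons passed limma's test, at an unadjusted p under 0.05 also 0. All 3 genes had means of at least 1 FPKM and were among the 3317 genes tested. Shares of all genes given here are over these, which the authors selected, and not over the transcriptome. A call is a limma adjusted p under 0.05 over those genes, and fold changes are on the log2(FPKM + 1) scale, which understates the change of low genes such as these.

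**Figure D1:**
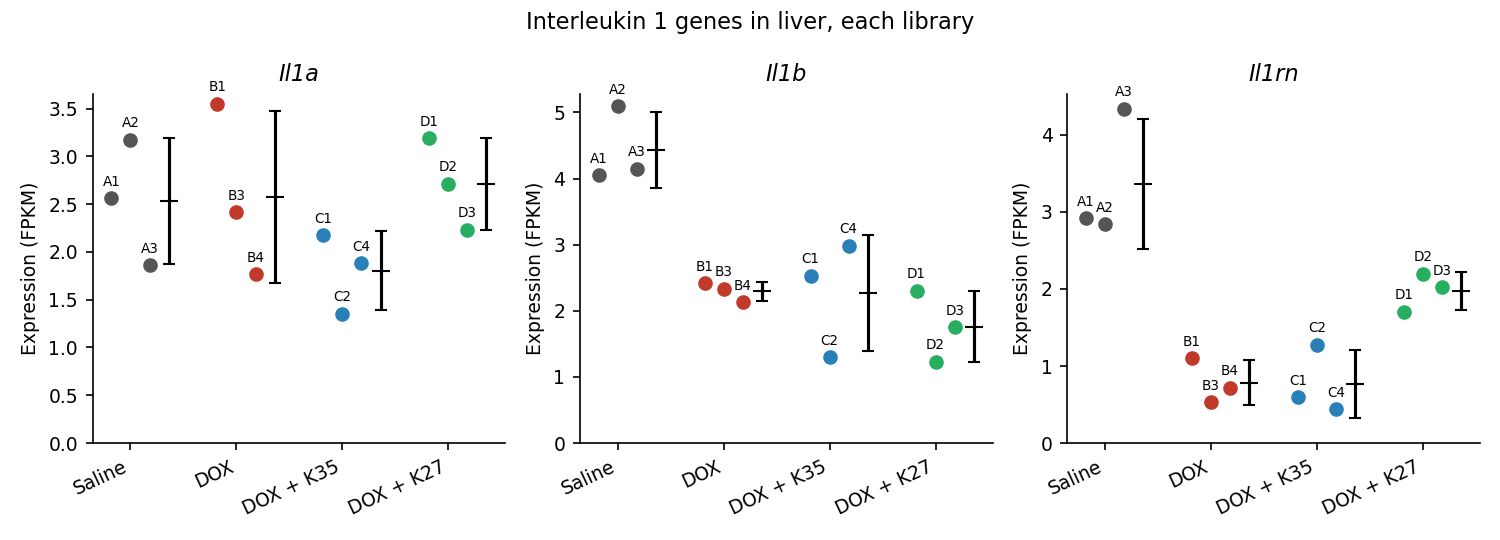
Expression of *Il1a*, *Il1b* and *Il1rn* (y axis, FPKM from 0) in each of the 12 libraries by group (x axis), with the library code above each point and the mean ± SD (n = 3) as a black bar. The Saline libraries lie above all others for *Il1b* and *Il1rn*, and the groups overlap for *Il1a* except DOX + K35 against DOX + K27.

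*Il1a*, the alarm ligand, was at 2.56, 3.17 and 1.86 FPKM in Saline replicates 1, 2 and 3. It was at 3.55 FPKM in DOX replicate 1, 2.41 in library B3 and 1.77 in library B4. Saline and DOX libraries were interleaved, and the highest and the second lowest of all 12 values were both DOX libraries. In DOX + K35 it was at 2.17, 1.35 and 1.88 FPKM in replicate 1, replicate 2 and library C4. The DOX + K27 replicates 1, 2 and 3 were at 3.19, 2.71 and 2.23 FPKM. All DOX + K35 libraries were below all DOX + K27 libraries, narrowly, and each of these groups overlapped DOX and Saline.

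The group means of *Il1a*, from high to low, were 2.71 ± 0.480 FPKM in DOX + K27, 2.58 ± 0.901 in DOX, 2.53 ± 0.656 in Saline and 1.80 ± 0.415 in DOX + K35 (SD, n = 3 per group). No neighbours in this order, and no pair of groups, differed in the test. The log2 fold change was 0.005 in DOX against Saline (SE 0.22, limma adjusted p = 0.987). Its 95% interval ran from −0.47 to 0.48. Leaving out the 20 highest genes gave 0.42 (95% interval 0.06 to 0.79, limma adjusted p = 0.0663), so the size of the difference in *Il1a* depended on scaling. Between the compounds, *Il1a* differed by −0.41 in DOX + K35 against DOX + K27 (95% interval −0.89 to 0.07, limma adjusted p = 0.215). Of all genes tested, 18.9% were lower in DOX + K35 than in DOX + K27 with no overlap of the groups.

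*Il1a* against DOX depended on scaling. In DOX + K35 against DOX the log2 fold change was −0.33 (SE 0.22, limma adjusted p = 0.213), whereas the median of all genes in this comparison was 0.46 and 56.8% of genes passed the test. With the 20 highest genes left out before rescaling, the value was −0.82 and passed (limma adjusted p = 0.00355). It also passed under median-ratio scaling at −0.57 (limma adjusted p = 0.0114), under quantile normalization at −0.45 (limma adjusted p = 0.0342) and without the mitochondrially encoded genes at −0.54 (limma adjusted p = 0.0316). Leaving out 1 library at a time gave −0.50 (without library B4) to −0.14 (without DOX replicate 1), and −0.21 without DOX + K35 replicate 2, none of which passed. The share of all genes called lower also moved with these settings, from 356 genes of 1883 called to as many as 1437 of 2350 with the 20 highest genes left out.

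*Il1b*, the inflammasome-dependent ligand, was at 4.05, 5.09 and 4.15 FPKM in Saline replicates 1, 2 and 3. In DOX it was at 2.42 FPKM in replicate 1, 2.33 in library B3 and 2.13 in library B4, the tightest group of the 4. All DOX libraries were below all Saline libraries. The DOX + K35 values were 2.53, 1.30 and 2.99 FPKM in replicate 1, replicate 2 and library C4. In DOX + K27 they were 2.30, 1.23 and 1.75 FPKM in replicates 1, 2 and 3. Every one of the 9 libraries from doxorubicin-treated mice was below every Saline library, and the 3 treated groups overlapped each other.

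From high to low the *Il1b* means placed Saline at 4.43 ± 0.575 FPKM, DOX at 2.29 ± 0.150, DOX + K35 at 2.27 ± 0.874 and DOX + K27 at 1.76 ± 0.539 (SD, n = 3 per group). The log2 fold change against Saline was −0.72 in DOX (SE 0.22, 95% interval −1.20 to −0.24, limma adjusted p = 0.0612). It was −0.77 in DOX + K35 (limma adjusted p = 0.184) and −0.99 in DOX + K27 (limma adjusted p = 0.169, where 0.121% of genes passed), and these comparisons share the Saline libraries. The groups did not overlap in any of them, and the share of all genes that were lower with no overlap was 2.95% for DOX + K27, 10.1% for DOX + K35 and 23% for DOX. The value in DOX depended on scaling, at −0.28 with the 20 highest genes left out (95% interval −0.76 to 0.20, limma adjusted p = 0.30). It passed without DOX replicate 1 (−0.75, limma adjusted p = 0.03) and without Saline replicate 3 (−0.75, limma adjusted p = 0.0412).

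Both compound groups overlapped DOX in *Il1b*. The log2 fold change was −0.05 in DOX + K35 (95% interval −0.53 to 0.43, limma adjusted p = 0.856) and −0.27 in DOX + K27 (95% interval −0.75 to 0.21, limma adjusted p = 0.425). In DOX + K27 it was −0.62 with the 20 highest genes left out (95% interval −1.10 to −0.14), −0.54 with quantile normalization and −0.50 with median-ratio scaling, with limma adjusted p-values from 0.16 to 0.195. Without DOX + K27 replicate 1 it was −0.41 and without replicate 2 it was −0.13. The DOX + K35 value passed in 1 setting, at −0.56 with the 20 highest genes left out (limma adjusted p = 0.0394). Between the compounds the difference, DOX + K35 minus DOX + K27, was 0.22 (95% interval −0.25 to 0.70, limma adjusted p = 0.432), and it was 0.46 without DOX + K35 replicate 2 and 0.36 without DOX + K27 replicate 1.

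*Il1rn*, the antagonist, was at 2.92, 2.84 and 4.34 FPKM in Saline replicates 1, 2 and 3. In DOX it was at 1.10 FPKM in replicate 1, 0.526 in library B3 and 0.718 in library B4. The highest DOX value was well under the lowest Saline value. In DOX + K35 it was at 0.597, 1.27 and 0.437 FPKM in replicate 1, replicate 2 and library C4. In DOX + K27 it was at 1.70, 2.20 and 2.02 FPKM in replicates 1, 2 and 3. DOX and DOX + K35 covered the same low range, Saline the high one, and the DOX + K27 libraries lay between without touching either. Of all genes tested, 23% were lower in DOX than in Saline with no overlap, and 10.1% were lower in DOX + K35.

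The means of *Il1rn* from high to low were 3.36 ± 0.843 FPKM in Saline, 1.97 ± 0.250 in DOX + K27, 0.782 ± 0.293 in DOX and 0.769 ± 0.444 in DOX + K35 (SD, n = 3 per group). *Il1rn* fell in DOX against Saline by 1.29 on the log2 scale (SE 0.21, 95% interval −1.74 to −0.84, limma adjusted p = 0.0252). It was 1 of 6 genes called in this comparison, which is 0.181% of those tested, and had the third lowest p. The number of genes called beside it moved widely with the setting, to 1103 with the 20 highest genes left out, 1065 with median-ratio scaling, 1190 without Saline replicate 3 and 1474 without DOX replicate 1. The median of all genes was −0.34, and relative to it *Il1rn* was at −0.95, *Il1b* at −0.38 and *Il1a* at 0.34. In DOX + K35 against Saline *Il1rn* fell by 1.31 on the log2 scale (SE 0.21, limma adjusted p = 0.0281), again as 1 of 6 genes called (0.181%), where the median of all genes was 0.13.

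The call in DOX against Saline rested on adjusted p-values near the threshold. It was lost without library B3 (limma adjusted p = 0.123), without library B4 (limma adjusted p = 0.106) and without Saline replicate 1 (limma adjusted p = 0.072), with log2 fold changes between −1.36 and −1.18. It was also lost with a pseudocount of 0.1, where the fold change was larger at −2.00 (limma adjusted p = 0.0561), and in a fit of the 2 groups alone (limma adjusted p = 0.0818). The call in DOX + K35 against Saline was lost without Saline replicate 1, 2 or 3 (limma adjusted p = 0.109, 0.118 and 0.0503), without DOX + K35 replicate 1 (0.091), without library C4 (0.0886), without library B3 (0.0539) and without DOX + K27 replicate 2 (0.0528). The exact permutation test gave p = 0.1 (two-sided) for each of these comparisons, the smallest that 3 libraries against 3 allow. Without Saline replicate 3, the library with high *Saa1*, the DOX value was −1.13 (limma adjusted p = 0.0313).

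Between the compounds *Il1rn* was lower in every DOX + K35 library than in every DOX + K27 library, as were 18.9% of all genes. Against DOX, the DOX + K27 mean was 2.52 times as high and the DOX + K35 mean 0.984 times. The log2 fold change against DOX was 0.75 in DOX + K27 (SE 0.21, 95% interval 0.30 to 1.20, limma adjusted p = 0.155), and 15.9% of all genes were higher there with no overlap. It passed only without DOX replicate 1, at 0.87 (limma adjusted p = 0.0242), where 1097 genes passed against 2 (0.0603%) with all libraries. In DOX + K35 it was −0.03 (95% interval −0.48 to 0.42, limma adjusted p = 0.915), in a comparison where 56.8% of genes passed, and −0.34 with the 20 highest genes left out (limma adjusted p = 0.147). Both values use the same DOX libraries.

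The direct difference in *Il1rn*, DOX + K35 minus DOX + K27, was −0.77 on the log2 scale (SE 0.21, 95% interval −1.22 to −0.32, limma adjusted p = 0.0683), where 2.11% of genes passed. It did not pass with all libraries. It passed with the 20 highest genes left out (−0.86, limma adjusted p = 0.0348), without the mitochondrially encoded genes (−0.81, limma adjusted p = 0.0442), without Saline replicate 3 (limma adjusted p = 0.0429) and without library B4 (limma adjusted p = 0.047). Against Saline, DOX + K27 was lower by −0.54 (95% interval −0.99 to −0.09, limma adjusted p = 0.674), with no overlap, as for 2.95% of genes.

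**Figure D2:**
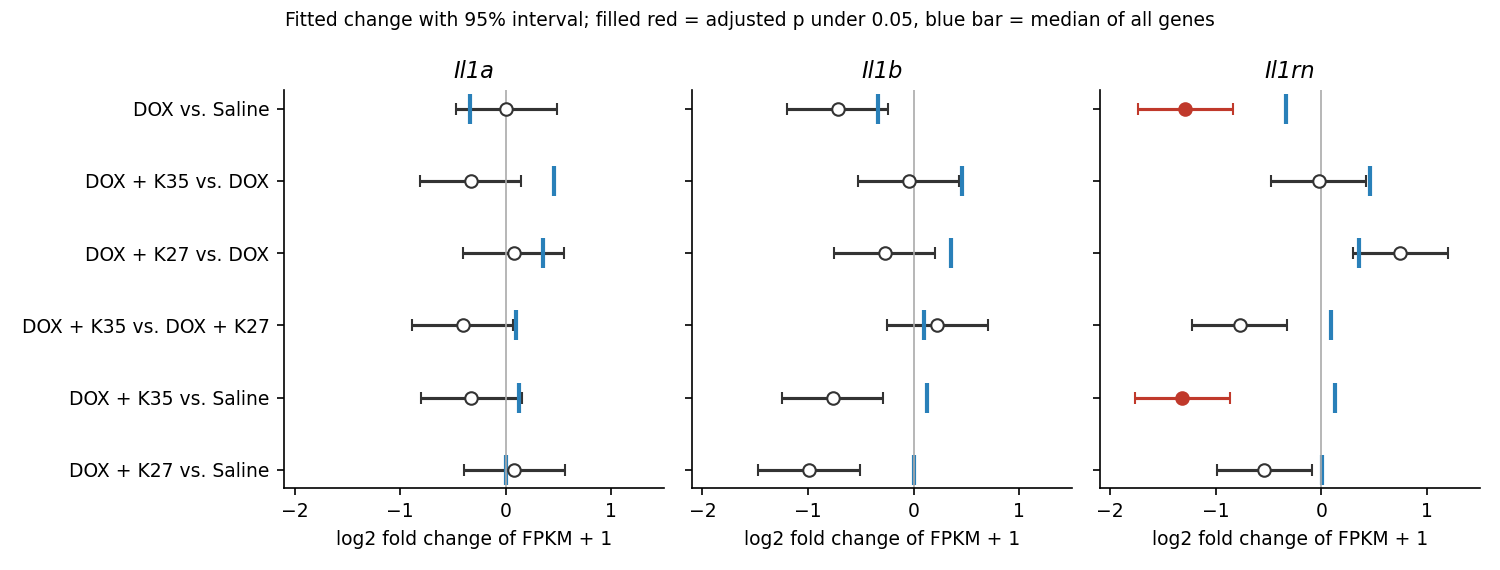
Log2 fold change of FPKM + 1 (x axis) with its 95% interval for *Il1a*, *Il1b* and *Il1rn* in 6 comparisons (y axis), with the median of all 3317 genes as a blue bar. Filled red points, *Il1rn* in DOX and in DOX + K35 against Saline, have a limma adjusted p under 0.05, and the comparisons share libraries.

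**Figure D3:**
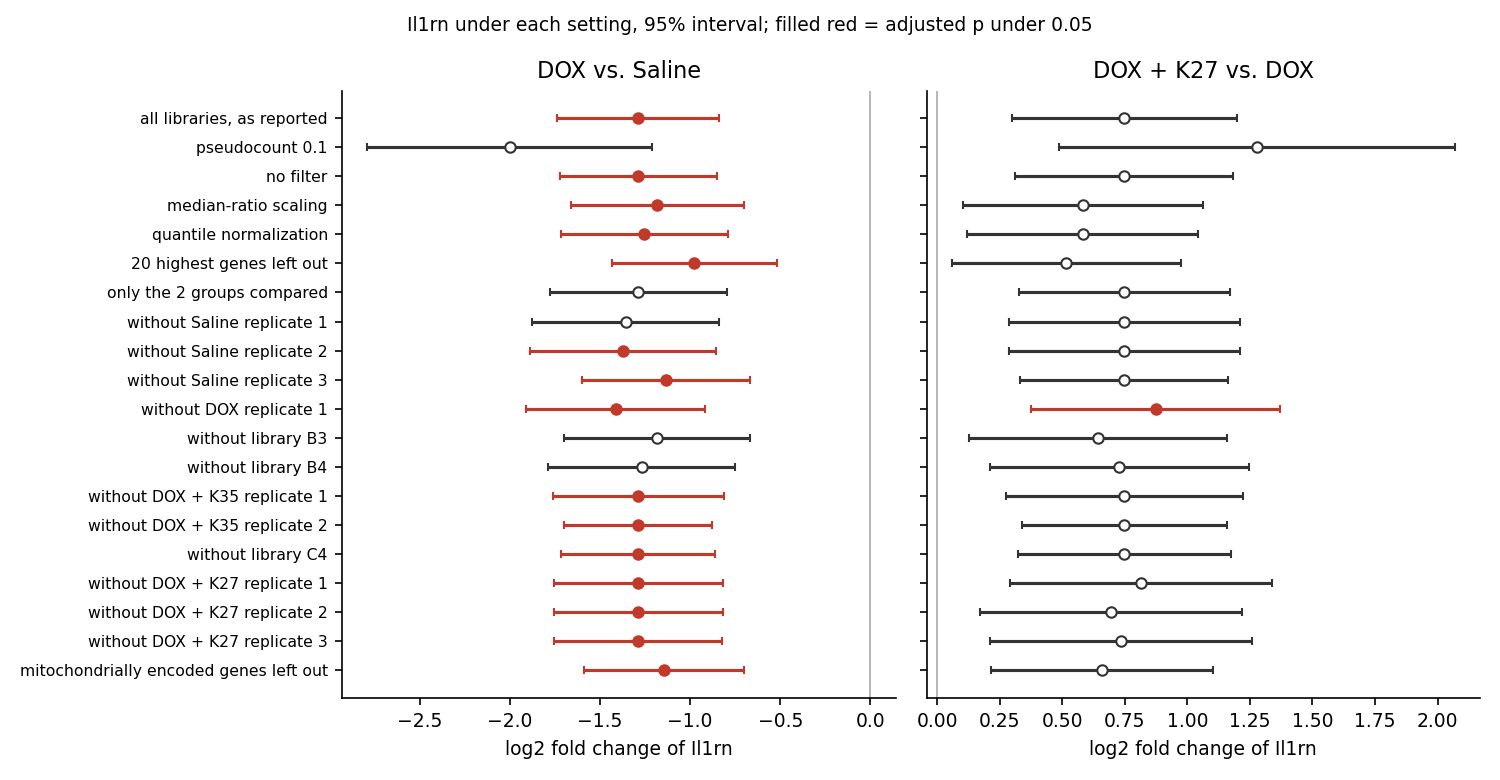
Log2 fold change of *Il1rn* (x axis) with its 95% interval in DOX against Saline and in DOX + K27 against DOX under each setting (y axis). Filled red points have a limma adjusted p under 0.05, which holds for 14 of 19 alternatives on the left and for 1 on the right, and no interval reaches 0 in either panel.

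Ratios within a library do not depend on the scaling to its total. The ratio of *Il1rn* to *Il1b* was 0.720, 0.558 and 1.05 in Saline replicates 1, 2 and 3 and 0.455, 0.226 and 0.338 in DOX replicate 1, library B3 and library B4. Less antagonist relative to *Il1b* was thus seen in every DOX library than in any Saline library. In DOX + K35 the ratio was 0.236, 0.983 and 0.146 in replicate 1, replicate 2 and library C4. Replicate 2 lay within the Saline range, replicate 1 within the DOX range and library C4 below it. In DOX + K27 it was 0.739, 1.79 and 1.15 in replicates 1, 2 and 3, above every DOX library and overlapping Saline.

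The mean ratio of *Il1rn* to *Il1b* was highest in DOX + K27 at 1.23 ± 0.530, followed by Saline at 0.774 ± 0.248, DOX + K35 at 0.455 ± 0.459 and DOX at 0.340 ± 0.115 (SD, n = 3 per group). Without DOX + K35 replicate 2 the DOX + K35 mean was 0.191, below DOX. An exact permutation test gave p = 0.1 (two-sided, the smallest possible) for DOX against Saline and for DOX + K27 against DOX. For DOX + K35 against DOX + K27 the groups overlapped, and the exact permutation p was 0.2. The antagonist over the sum of both ligands was 0.502 ± 0.196 in Saline, 0.458 ± 0.131 in DOX + K27, 0.232 ± 0.216 in DOX + K35 and 0.160 ± 0.0425 in DOX (SD, n = 3 per group). It was higher in every Saline and every DOX + K27 library than in any DOX library. The DOX + K35 libraries were at 0.127, 0.480 and 0.0898 in replicate 1, replicate 2 and library C4, with a mean of 0.108 without replicate 2, below DOX. How often ratios between other genes separate these groups was not computed. Among single genes tested, 23% were lower in DOX than in Saline with no overlap, and 15.9% were higher in DOX + K27 than in DOX.

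The ratio between the ligands also separated some groups. The *Il1a* to *Il1b* ratio ran from 0.448 to 0.633 in Saline, from 0.629 to 1.05 in DOX + K35, from 0.831 to 1.47 in DOX and from 1.27 to 2.21 in DOX + K27. *Il1b* exceeded *Il1a* in every Saline library, and *Il1a* exceeded *Il1b* in every DOX + K27 library. The exact permutation p was 0.1 (two-sided, the smallest possible) for DOX and for DOX + K27 against Saline and for DOX + K35 against DOX + K27.

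**Figure D4:**
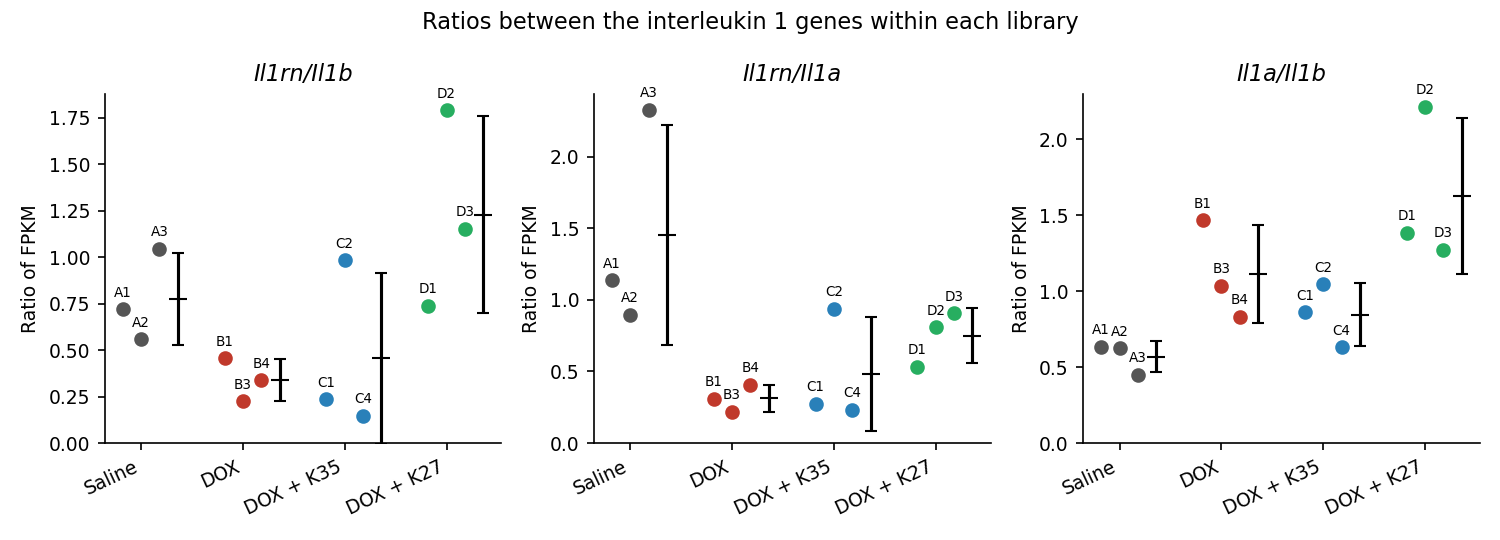
Ratio of FPKM between pairs of the 3 genes (y axis, from 0) within each library by group (x axis), with the mean ± SD (n = 3) as a black bar. All DOX libraries are below all Saline libraries for *Il1rn* over *Il1b* and over *Il1a*, and above them for *Il1a* over *Il1b*.

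Kupffer cell and macrophage markers were low in DOX beside *Il1rn*. Of 17 markers listed, 9 were in the table, and none of these was at 0 in any library. All 9 had a log2 fold change below 0 in DOX against Saline, where 0 had a limma adjusted p under 0.05 and 9 an unadjusted p under 0.05, as did 47.4% of all genes. Their summed level was 109 to 286 FPKM in Saline and 32.3 to 82.2 in DOX, with DOX + K27 at 82.6 to 141 and DOX + K35 at 79.8 to 129. The macrophage receptor *Marco* was highest in Saline replicate 3, at 25.4 FPKM, and the scavenger gene *Cd5l* ranged from 4.23 FPKM in library B4 to 40.6 in Saline replicate 3.

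In DOX + K35 against DOX the marker sums overlapped, with means of 107 and 61.3 FPKM. All 9 markers had a log2 fold change above 0, and 5 were called higher, where 46% of all genes were called higher. The median log2 fold change was 0.72 over the 9 and 0.46 over all genes, while *Il1rn* was at −0.03. *Vsig4*, a complement receptor of Kupffer cells, rose by 1.20 (limma adjusted p = 0.0182). Between the compounds the marker sums overlapped, with a mean of 107 FPKM in DOX + K35 and 106 in DOX + K27, while *Il1rn* did not overlap. The part of macrophage content in the *Il1rn* and *Il1b* results was not tested, and in whole liver fewer cells of a type and less RNA per cell cannot be told apart. Erythroid markers went the other way, with a summed level of 330 to 506 FPKM in Saline and 821 to 1135 in DOX. Their sum was 62.2 to 596 FPKM in DOX + K35 and 452 to 1072 in DOX + K27, and all 4 in the table fell in DOX + K35 against DOX, where 10.7% of genes were called lower. Their part in the results was not tested. Of 13 neutrophil markers 1 was in the table, *Csf3r*, at 1.26 to 3.70 FPKM, and none of 6 monocyte markers listed was found by symbol.

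**Figure D5:**
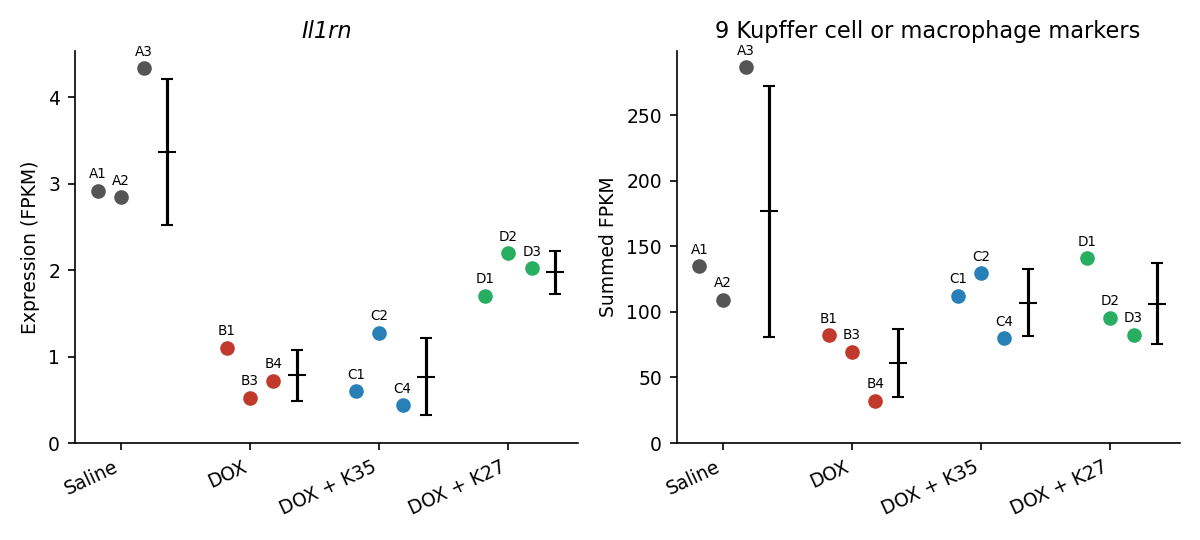
*Il1rn* (left, FPKM) and the summed FPKM of 9 Kupffer cell or macrophage markers (right) in each library by group (x axis), both from 0, with the mean ± SD (n = 3) as a black bar. DOX is below Saline in both panels, whereas DOX + K35 overlaps DOX + K27 only in the marker sum.

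Genes with a pattern most like each member were ranked by Pearson correlation of log2(FPKM + 1) over the 12 libraries, which share group structure, scaling and mitochondrial share, so the values are descriptive. For *Il1rn* they were *Slc22a5* (r = 0.86, Spearman ρ = 0.86), *Rab30* (r = 0.85), *Aif1* (r = 0.84), *Junb* (r = 0.84) and *P2ry1* (r = 0.84). *Slc22a5* encodes a carnitine transporter, *Aif1* a calcium-binding protein of macrophages and *Junb* an AP-1 subunit. *Aif1* had the same order of group means. They were 7.25 ± 4.64 FPKM in Saline, 4.72 ± 1.63 in DOX + K27, 2.41 ± 0.539 in DOX and 2.33 ± 0.835 in DOX + K35 (SD, n = 3 per group). Its log2 fold change in DOX against Saline was −1.15 (limma adjusted p = 0.0612). After the group means were taken out, the correlation with *Il1rn* was 0.75 for *Slc22a5*, 0.56 for *Rab30*, 0.48 for *Aif1*, 0.51 for *Junb* and −0.07 for *P2ry1*.

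For *Il1b* the most alike genes were *Sik1* (r = 0.92, Spearman ρ = 0.94), *Slc25a25* (r = 0.79), *Plk3* (r = 0.77), *Id3* (r = 0.77) and *Csrnp1* (r = 0.72). *Sik1*, a salt-inducible kinase, had a mean of 10.6 FPKM in Saline, 6.27 in DOX + K35, 6.21 in DOX and 4.36 in DOX + K27. For *Il1a* they included *Alg13* (r = 0.88), *Ier2* (r = 0.84), *Sh3glb2* (r = 0.83) and *Dnmt3a* (r = 0.82). The members were less alike among themselves, at r = 0.26 for *Il1a* with *Il1b*, 0.21 for *Il1a* with *Il1rn* and 0.39 for *Il1b* with *Il1rn* over 12 libraries. After the group means were taken out, the correlations were 0.54, −0.32 and −0.70 in the same order, so that with *Il1rn* the sign turned.

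Other genes of the pathway were sparse in the table. The 3 members were the ones present of 11 family ligands and inhibitors listed, and none of the 10 receptors listed was found by symbol. Of 17 genes for processing and release, 6 were in the table and 3 were tested, and 1 of them passed in any comparison. *Nek7*, which licenses the NLRP3 inflammasome, rose in DOX + K35 against DOX by 1.11 (SE 0.26, limma adjusted p = 0.00573). In that comparison 46% of all genes were called higher. *Casp1*, which cleaves the IL-1β precursor, had a log2 fold change of −0.61 in the same comparison (limma adjusted p = 0.0677).

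Of 30 signalling genes 7 were tested, and 2 passed, both higher in DOX + K35 against DOX, where 46% of all genes were called higher. *Tollip*, an adaptor that restrains IL-1 receptor signalling, rose by 0.998 (SE 0.23, limma adjusted p = 0.00577), and the p38 kinase gene *Mapk14* by 1.06 (SE 0.25, limma adjusted p = 0.00578). *Myd88*, the adaptor of the receptor, did not pass, with a log2 fold change of −0.75 in DOX against Saline (limma adjusted p = 0.0612). The median log2 fold change over the 7 genes in DOX + K35 against DOX was −0.10, against 0.46 over all genes.

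A mixed list of targets of IL-1 in liver and other cytokines, mostly acute phase proteins, had log2 fold changes mostly above 0 in both compound groups against DOX. The list is not a readout of IL-1 action, which was not tested. Of 39 listed, 14 were tested, and 10 rose in DOX + K35 against DOX, where 46% of all genes were called higher, with a list median of 1.41 against 0.46 for all genes. In DOX + K27 against DOX 13 of the 14 were above 0, with a median of 1.06 against 0.36 for all genes. There 0 had a limma adjusted p under 0.05 and 8 an unadjusted p under 0.05, as did 29.3% of all genes. The 5 with the lowest p in DOX + K35 against DOX were *Serpina3m* (2.35), *Itih4* (2.26), *C3* (2.18), *Serpina3n* (2.26) and the fibrinogen chain gene *Fga* (2.07), with limma adjusted p-values from 0.00496 to 0.00611. *Serpina3m* and *Serpina3n* are close paralogs, and reads could be split between them. In DOX against Saline all 14 were below 0 with a median of −1.47, and 0 had a limma adjusted p under 0.05 while 8 had an unadjusted p under 0.05, as did 47.4% of all genes. The inflammatory chemokine gene *Cxcl10* was at −0.02 in DOX + K35 and 1.26 in DOX + K27 against DOX, and neither passed (limma adjusted p = 0.967 and 0.155).

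Of 7 senescence markers listed, 3 were in the table, *Cdkn1a* beside both ligands. The study chose this list, so it is not independent evidence of a direction. *Cdkn1a*, which encodes the cell cycle inhibitor p21, had means of 9.20 ± 7.04 FPKM in DOX + K35, 5.43 ± 1.79 in DOX + K27, 3.22 ± 1.13 in DOX and 0.806 ± 0.143 in Saline (SD, n = 3 per group). Library C4, at 17.3 FPKM, carried the DOX + K35 mean, which was 5.17 FPKM without it, below DOX + K27. *Cdkn1a* rose in DOX + K35 against Saline by 2.29 (limma adjusted p = 0.0281), where 0.181% of genes passed. Against DOX it rose by 1.10 (limma adjusted p = 0.0224), where 46% of all genes were called higher. Against Saline, *Cdkn1a* was at 1.19 in DOX (limma adjusted p = 0.0612) and at 1.80 in DOX + K27 (limma adjusted p = 0.116), and neither passed. It was higher in every treated library than in any Saline library, whereas *Il1b* was lower in every one of them and *Il1a* overlapped. The share of all genes lower than Saline with no overlap was 23% for DOX, 10.1% for DOX + K35 and 2.95% for DOX + K27. The share higher than Saline with no overlap was not computed.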

How the data were processed

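Poly(A) RNA of 12 livers was sequenced (Illumina NovaSeq). Length-scaled values of 3799 genes, selected by the authors, were deposited as 1 table, treated here as FPKM since its header names no unit. Its name refers to differentially expressed genes, but the sources used here do not state the rule of selection. Shares of all genes and adjusted p-values are therefore over this selection and not over the transcriptome. Per the labels, the submitters' processing notes name HISAT2, DESeq2, edgeR and GRCm38, with no versions. Depth and counting error are unknown, and precision is that of the replicates, whose p-values measure the spread between livers.

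limma (trend) was fitted to log2(FPKM + 1) of the 3317 genes whose mean reached 1 FPKM, over all 12 libraries in 1 one-way layout with 8 residual degrees of freedom before moderation. Adjusted p-values are limma's with Benjamini-Hochberg correction within each of 6 comparisons (threshold 0.05), never over the 3 members. Exact two-sided permutation tests were used for ratios. The fit was tested on simulated data (DOX vs. Saline, 3317 genes) with noise drawn independently for each gene. There 39.5% of genes changed by 1 on the log2 scale were recovered, with 7.06% false calls, and 91.5% of those changed by 2, with 4.19% false calls. Shifts shared by the genes of a library were not simulated, so these rates hold for that setting only.

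The genes named were the 3 members, list genes that passed or, in lists of more than 10, with the lowest p, and the 5 genes most correlated with each member, of which 1 is not reported here. *Casp1*, *Myd88*, *Cxcl10*, *Cd5l*, *Marco*, *Vsig4* and *Saa1* were named after their values were seen. The members and lists were chosen with earlier results of these data known. Alternatives were a pseudocount of 0.1, other filters, scalings and fits, omission of each library and a replicate block. Libraries B3, B4 and C4 have codes that the labels (B1 to B3, C1 to C3) do not match singly. The main fit used no pairing, and replicate numbers were treated as pairs in the replicate block only. Deviations from group means correlated at 0.258, 0.176 and 0.474 between Saline and DOX + K27 replicates numbered 1, 2 and 3. Replicate 1 of Saline with 2 of DOX + K27 (0.380) and 2 with 1 (0.302) correlated more than same-numbered replicates 1 or 2. These values therefore do not settle whether the numbers are pairs. Promoters and identifiers were matched to RefSeq and to GENCODE M21, where all 3519 Ensembl identifiers of the table were found. Software was Python 3.11.15 with pandas 2.3.3, numpy 2.4.6, scipy 1.17.1 and matplotlib 3.10.9, and R 4.3.3 with limma 3.58.1.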

Additional observations from a re-analysis of the deposited data

How the results depend on the processing

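Over 19 alternatives, *Il1rn* was below Saline in DOX and in DOX + K35 in all, and the call held in 14 and 10. Of the 12 fits that left out 1 library, the call held in 9 in DOX and in 5 in DOX + K35. Among the 7 other alternatives, those without the call in DOX were a pseudocount of 0.1 (−2.00) and a fit of the 2 groups (−1.29). In DOX + K35 they were quantile normalization (−1.21) and a fit of the 2 groups (−1.31). *Il1a* in DOX + K35 against DOX passed under median-ratio scaling (−0.57), quantile normalization (−0.45), with the 20 highest genes left out (−0.82) and without mitochondrially encoded genes (−0.54), an alternative added after seeing the data. *Il1b* there passed with the 20 highest genes left out (−0.56). With a pseudocount of 0.1, *Il1rn* was at 1.28 in DOX + K27 against DOX and −1.36 between the compounds. In DOX + K35 against Saline it was then at −2.09. Some scalings gave smaller changes of *Il1rn*. In DOX + K27 against DOX its value fell to 0.52 without the 20 highest genes. Median-ratio scaling and quantile normalization each gave 0.58 there. Between the compounds, quantile normalization gave −0.54 (limma adjusted p = 0.103). In DOX against Saline, removing the 20 highest genes gave −0.98, and the call held. *Il1rn* between DOX + K35 and DOX + K27 passed with the 20 highest genes (−0.86) or the mitochondrially encoded genes (−0.81) left out. *Il1a* in DOX + K27 against DOX turned to −0.15 with median-ratio scaling, −0.17 with quantile normalization, −0.28 without the 20 highest genes and −0.0733 without mitochondrially encoded genes, and against Saline to −0.0348 with quantile normalization. *Il1rn* in DOX + K35 against DOX turned to 0.0434 with quantile normalization. The cause was not tested.

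Leaving out each library gave, in DOX against Saline, −0.18 to 0.17 for *Il1a*, −0.77 to −0.63 for *Il1b* and −1.41 to −1.13 for *Il1rn*. In DOX + K35 against DOX it gave −0.50 to −0.14 for *Il1a*, −0.21 to 0.19 for *Il1b* and −0.22 to 0.11 for *Il1rn*. In DOX + K27 against DOX it gave −0.0945 to 0.26 for *Il1a* and 0.64 to 0.87 for *Il1rn*. It gave −0.0634 to 0.21 for *Il1a* in DOX + K27 against Saline, −0.97 to −0.64 for *Il1rn* between DOX + K35 and DOX + K27, and −1.51 to −1.16 for *Il1rn* in DOX + K35 against Saline.

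With a replicate block, pairing Saline and DOX + K27 by number, the log2 fold changes were −0.54 for *Il1rn* (limma adjusted p = 0.168), −0.99 for *Il1b* (limma adjusted p = 0.143) and 0.08 for *Il1a* (limma adjusted p = 0.701), and no call changed. A mean of at least 5 FPKM left none of the members, and DESeq2 was not run because there are no counts. Genes called ranged over the alternatives from 0 to 1474 in DOX against Saline (6 as reported), from 1208 to 2595 in DOX + K35 against DOX (1883), from 0 to 1097 in DOX + K27 against DOX (2), from 3 to 289 between the compounds (70), from 0 to 18 in DOX + K35 against Saline (6) and from 0 to 10 in DOX + K27 against Saline (4).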
